A study of Mus musculus with 30 samples.

Results

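Pou5f1, Sox2 and Nanog encode the core transcription factors of mouse embryonic stem cells. Every called N6-methyladenosine (m6A) bin that the deposited peak lists place in one of these 3 genes was taken, by Ensembl gene identifier. That gave 21 distinct bins of 100 nt out of 62139 in all, and 102 of the 204208 rows of the 15 lists. Nanog had 10 of the bins, Sox2 had 7 and Pou5f1 had 4. The lists come from 5 embryonic stem cell lines of strain C57BL/6, kept with leukaemia inhibitory factor in serum medium on gelatin. The lines were wild type (WT), a METTL14 knockout (KO), and the knockout carrying a rescue with METTL14 (KO+WT) or with 1 of 2 versions of METTL14 that lack arginine methylation (KO+5RK and KO+13RK). All lines but WT thus share the knockout, and the labels do not say whether a line is 1 clone. Each line has 3 lists, 1 per immunoprecipitated library, from fragmented mRNA bound by an m6A antibody.

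m6A is a methyl mark on adenosines within messenger RNA. METTL3 carries the methyltransferase activity, and METTL14 binds RNA beside it in the same complex. In most transcripts the mark gathers around the stop codon and in long exons, and it is known to shorten the life of many pluripotency transcripts. Oct4, the product of Pou5f1, binds DNA together with Sox2 at a joint motif, and Nanog, a homeodomain protein, acts at many of the same enhancers to hold the naive state.

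The lists differed in length, from 22217 to 23164 rows in WT and 14187 to 17185 in KO+WT, through 11174 to 13013 in KO+5RK and 9588 to 10980 in KO+13RK, to 6328 to 8593 in KO. Each row carries a p, a q and an enrichment value of the authors. The scale of the enrichment value is not given, so it is stated as deposited or as a percentile among the rows of its own list. Read depth is unknown, and a bin without a call is not a bin without m6A. A call also depends on how much of the transcript a library holds, which these lists cannot separate from the methylation of each molecule, nor from the number of cells that make the transcript. Of 9 markers of embryonic stem cells 8 had a bin in some list, and Dppa5a had none. Of other cell types, 2 of 6 primitive endoderm, 3 of 5 trophoblast, 4 of 7 fibroblast and 5 of 6 primed epiblast markers had a bin in some list. Fibroblast markers summed to 24 to 31 bins per WT list, nearly all in Fn1, and to 0 to 4 in the lists of the other lines. The part of this in the results was not tested.

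The called bins of the core factors were mostly weak ones. The median enrichment value was 0.88 over the 40 rows of Nanog, 0.865 over the 52 rows of Sox2 and 0.715 over the 10 rows of Pou5f1, against 1.36 over all rows. The value lay below 1 in 67.5% of the Nanog rows, 67.3% of the Sox2 rows and 100% of the Pou5f1 rows, and in 17.4% of all rows. No member bin was called in more than 12 of the 15 lists, and 6 of the 21 were called in 1 list.

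Genomic sequence was at hand only around gene starts, from RefSeq (GRCm38.p6). The bins next to the starts of Nanog and Pou5f1 reach into those windows, and 30 bases of each are shown. The Nanog window is built on a transcript start at chr6:122707565, 25 nt before the bin, which is not the first base of the gene span from which distances are counted. Both stretches are shown because they lie at gene starts where the WT and KO+WT lists held no call and other lists did. Capitals mark the bases that lie inside the called bin. The Nanog stretch is chr6:122707585-122707614 and the Pou5f1 stretch chr17:35506019-35506048, both on the plus strand.
Nanog: ttggcCTTCAGATAGGCTGATTTGGTTGGT
Pou5f1: GATTGGGGAGGGAGAGGTGAAACCGTCCCT
The core GGAC of the common m6A sequence context was searched only in the sense of the transcript, which is the plus strand printed here. It was absent from the 25 nt of the Nanog bin inside the window and from the 63 nt of the Pou5f1 bin. The first 13 nt of the Pou5f1 bin lie before the RefSeq start. Among the 32851 RefSeq windows, 9.76% and 22.5% hold it in the same stretches. The rest of these bins, and every Sox2 bin, lies outside the windows. Other forms of the m6A sequence context were not searched.

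**Figure D1:**
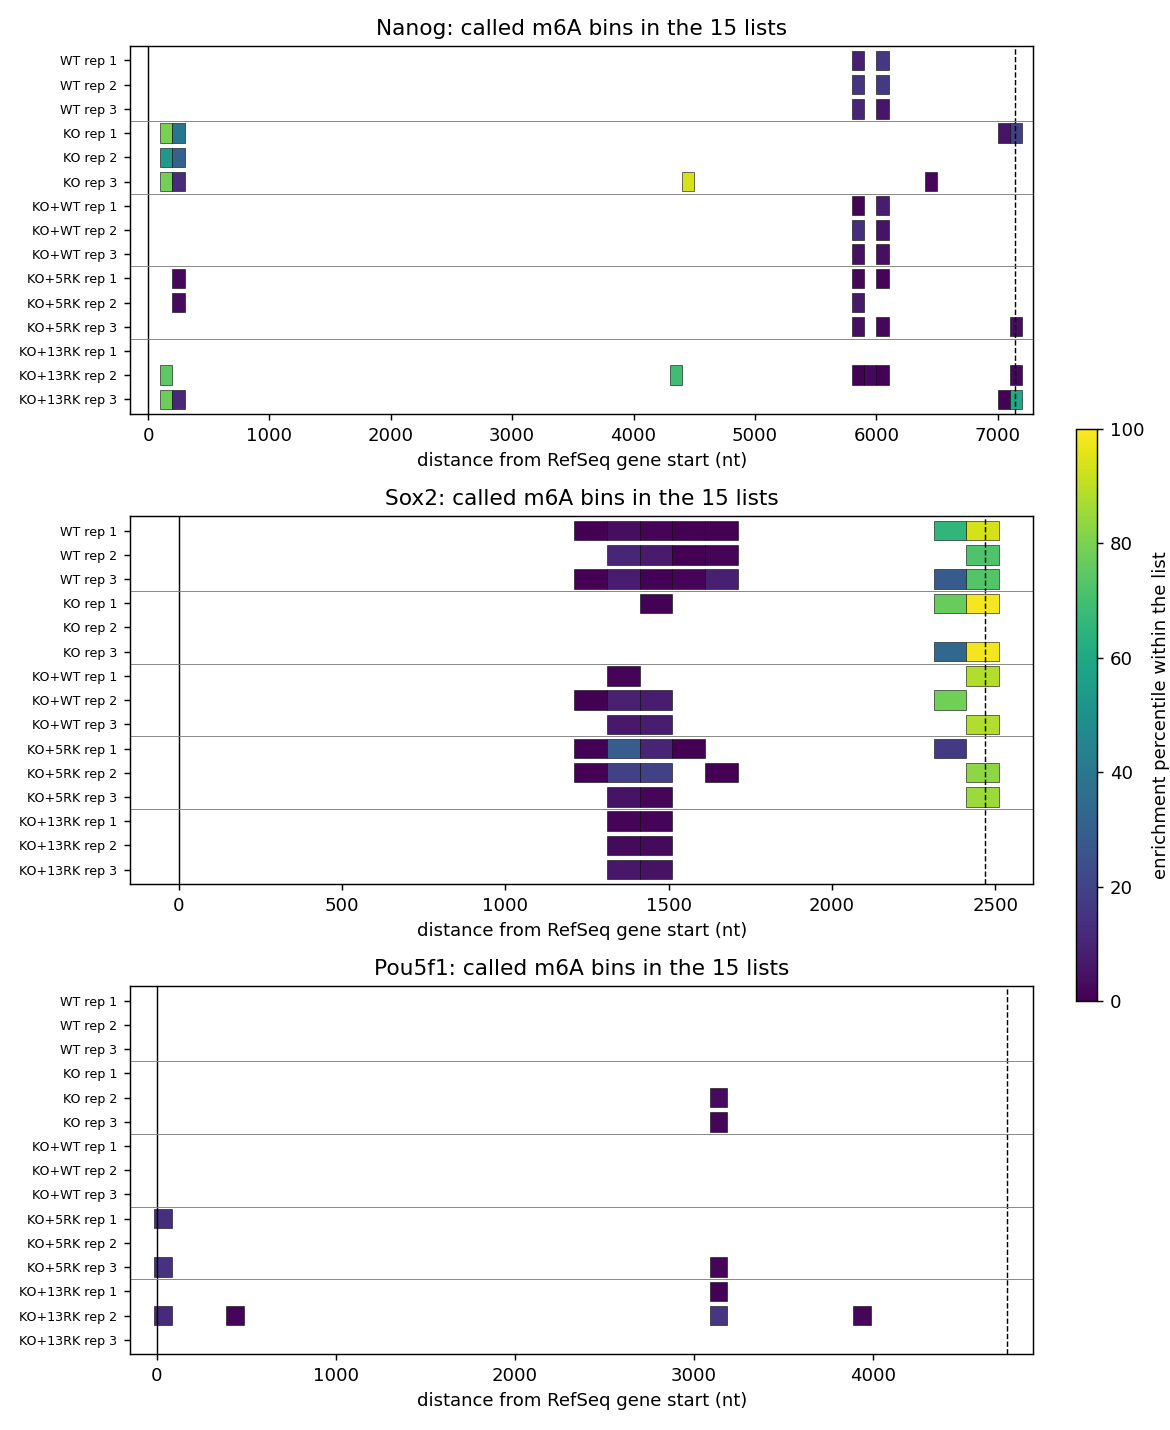
Called m6A bins of Nanog, Sox2 and Pou5f1, 1 row per list, plotted by distance from the RefSeq gene start in nt (solid line, start; dashed line, gene end) and coloured by the percentile of the enrichment value within the list. In Nanog the KO rows hold the bins at 102 to 301 nt while the WT and KO+WT rows hold those at 5802 to 6101 nt. With every list cut to the length of the shortest, each of the latter was left in 1 WT and 1 KO+WT list.

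Nanog (ENSMUSG00000012396, chr6:122707489-122714633, plus strand) was called in every list but KO+13RK replicate 1, yet in different places in WT and in KO. A pair of places carried most calls. At the gene start lay the bins chr6:122707590-122707689 and chr6:122707690-122707789, at 102 to 201 and 202 to 301 nt from the RefSeq start. On the side of the gene end lay the bins chr6:122713290-122713389 and chr6:122713490-122713589, whose last bases are 1244 and 1044 nt before the RefSeq end. The annotation used here gives gene spans only, so exons and UTRs are not assigned.

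Every KO list held the first start bin, as did 2 KO+13RK lists, while WT, KO+WT and KO+5RK had it in 0. Its enrichment value was 2.1, 1.36 and 1.97 in KO replicates 1 to 3, which are the 79.8, 54.2 and 78.5 percentiles of those lists. In KO+13RK it was 1.65 in replicate 2 and 1.93 in replicate 3, the 75.1 and 77.4 percentiles. It was thus a stronger than median call wherever it was called. The second start bin was called in 3 KO lists with values of 1.14, 1.09 and 0.89. In KO+5RK replicates 1 and 2 the second bin had 0.72 and 0.77, and in KO+13RK replicate 3 it had 0.92. No WT or KO+WT list, the longest of the series, held either start bin.

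The end-side bins showed the reverse pattern. The bin at chr6:122713290-122713389 was called in 3 lists each of WT, KO+WT and KO+5RK, in 1 of KO+13RK and in 0 of KO. WT had values of 0.93, 1.02 and 0.96, and KO+WT had 0.69, 0.94 and 0.81. KO+5RK had 0.71, 0.84 and 0.77, and KO+13RK replicate 2 had 0.56. The bin at chr6:122713490-122713589 was called in 3 lists each of WT and KO+WT, in 2 of KO+5RK, in 1 of KO+13RK and again in 0 of KO. Its value was 1.02, 1.04 and 0.87 in WT and 0.89, 0.82 and 0.8 in KO+WT. In KO+5RK replicates 1 and 3 it was 0.66 and 0.71, and in KO+13RK replicate 2 it was 0.51. These were weak calls, at a median percentile of 5.22 for the first and 4.79 for the second bin. KO+13RK was split: replicate 2 held both end-side bins and a start bin, replicate 3 held both start bins and no end-side bin, and replicate 1 held no Nanog bin. With every list cut to its 6328 rows of smallest p (equal list length), each end-side bin was left in 1 WT and 1 KO+WT list. KO+5RK then kept the first of them in 2 lists, and the KO lists held neither.

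By the rule of 3 lists against 0, KO lost the 2 of 2 Nanog bins that every WT list held, as it did 80.2% of the 11334 bins of all genes called in 3 WT lists. Both bins called in all 3 KO lists were new against WT, as were 26.2% of the 2353 such bins of all genes. Against KO+WT the counts were again 2 of 2 in each direction, beside 71.5% and 23.5% of all bins. From KO+WT to KO+5RK 0 of the 2 Nanog bins were lost and 0 of 1 were new, with 7.60% lost and 2.98% new over all genes. From KO+WT to KO+13RK 0 of 2 were lost, with 16.8% lost and 2.59% new over all genes. Against KO+5RK, KO lost 1 of 1 and gained 1 of 2 Nanog bins, beside 67.4% and 28.5% over all genes. The loss of the end-side bins from KO is therefore the common behaviour of WT bins, while the start bins belong to the smaller share of KO bins that WT lists lacked.

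No Nanog bin passed the test over all bins. Fisher's exact test, KO (3 lists) against the other lines (12 lists), adjusted over 24770 bins, gave an adjusted p of 0.163 for the first start bin (3 of 3 against 2 of 12 lists). For the first end-side bin (0 of 3 against 10 of 12) the adjusted p was also 0.163, and for the second bin of each pair it was 0.242. Over all bins this test called 4.76% less often and 1.05% more often in KO, and 18.2% had an unadjusted p under 0.05, as did these 4. Set against the 6 WT and KO+WT lists alone, a comparison chosen after the data were seen, each of the 4 bins had 3 of 3 against 0 of 6 lists or the reverse (Fisher's exact test, p = 0.0119, the smallest possible, adjusted p = 0.0577). In that comparison 34.6% of all bins had an unadjusted p under 0.05 and 0 passed after adjustment.

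Counting bins per list hides this exchange of places. The WT lists had 2, 2 and 2 Nanog bins and the KO+WT lists 2, 2 and 2. The KO lists had 4, 2 and 4, the KO+5RK lists 3, 2 and 3, and the KO+13RK lists 0, 6 and 4. The means were 3.33 ± 1.15 in KO and 3.33 ± 3.06 in KO+13RK, then 2.67 ± 0.577 in KO+5RK and 2 ± 0 in WT and KO+WT (SD, n = 3). Neighbours in this order overlapped in their lists. KO exceeded the 12 other lists by 0.833 bins per list (two-sided exact permutation test, p = 0.527, adjusted p = 0.860 over 9852 genes), and 0% of genes passed this test in either direction. The difference was 1.67 at equal list length (exact permutation test, p = 0.0681, adjusted p = 0.276), 1.5 without KO replicate 2, and 0.5 without KO replicate 1 or 3. The smallest adjusted p of any gene was 0.0565, and 1510 genes had an unadjusted p under 0.05. The lists with wild-type METTL14 had 1 bin fewer than the mutant lists, 2 ± 0 against 3 ± 2 (SD, n = 6; exact permutation test, p = 0.364, adjusted p = 0.758 over 9257 genes, with 0% of genes called and 1397 at an unadjusted p under 0.05). That difference of -1 was -1.6 without KO+13RK replicate 1 (exact permutation test, p = 0.0152, adjusted p = 0.214) and -0.4 without KO+13RK replicate 2 (adjusted p = 0.856).

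The other 6 Nanog bins were called in 1 to 4 lists each. At chr6:122714590-122714689, which runs 56 nt past the RefSeq end, the value was 0.95 in KO replicate 1, 0.76 in KO+5RK replicate 3, and 0.7 and 1.51 in KO+13RK replicates 2 and 3. The bin before it was called in KO replicate 1 and KO+13RK replicate 3. A bin at 4402 to 4501 nt was called in KO replicate 3 with a value of 2.62, the 93.7 percentile, and its neighbour at 4302 to 4401 nt in KO+13RK replicate 2 with 1.52. Downstream of the end-side bins, the bin at 6402 to 6501 nt was called in KO replicate 3 with 0.68. The bin at 5902 to 6001 nt, between the end-side bins, was called in KO+13RK replicate 2 with 0.7. None of these 6 bins was called in a WT or KO+WT list. The 6 lists with wild-type METTL14 therefore held the same 2 Nanog bins each, and no others.

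**Figure D2:**
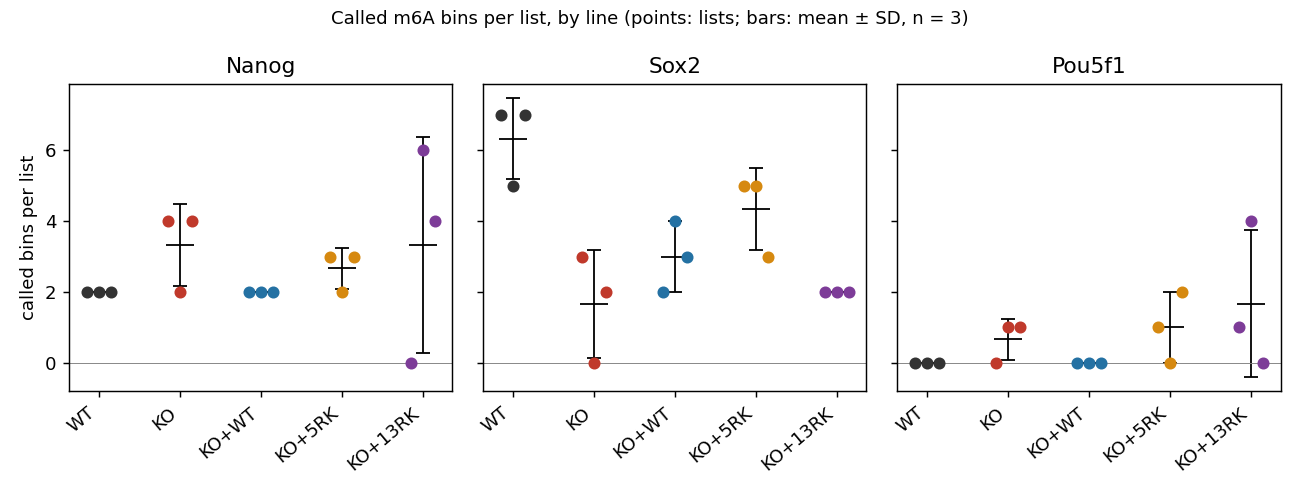
Called bins per list of Nanog, Sox2 and Pou5f1 by line, with 1 point per list and bars for the mean ± SD (n = 3). Sox2 had 5 to 7 bins per WT list and 0 to 3 per KO list, while Nanog had 2 in each of the WT and KO+WT lists.

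Sox2 (ENSMUSG00000074637, chr3:34649995-34652461, plus strand), a single-exon gene, was called in 2 separate stretches. The middle one held 5 adjoining bins at 1212 to 1711 nt from the gene start, and the end one held 2 adjoining bins at 2312 to 2511 nt, the last 44 nt of which lie past the RefSeq end. The middle bins were weak calls, with a median enrichment value of 0.71 and a median percentile of 1.36 over 37 rows. The end bins were strong, with a median of 1.96 and a percentile of 78.2 over 15 rows.

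The middle stretch was called mostly in the lines with a METTL14 protein, where WT had 14 rows, KO+5RK had 10 and KO+WT and KO+13RK had 6 each, against 1 row in KO. Its second bin, chr3:34651306-34651405, was called in 12 of 12 lists of the lines with a METTL14 protein and in 0 of 3 KO lists. WT had enrichment values of 0.82, 0.96 and 0.91, and KO+WT had 0.71, 0.89 and 0.86. KO+5RK had 1.11, 1 and 0.8, and KO+13RK had 0.67, 0.71 and 0.84. This was the 1 member bin of 14 tested that passed Fisher's exact test of KO against the 12 other lists (p = 0.0022, the smallest possible, adjusted p = 0.0378 over 24770 bins), beside the 4.76% of all bins called less often in KO. By this test 0 member bins were called more often in KO, beside 1.05% of all bins. With any 1 KO list left out the bin stayed at 0 of 2 against 12 of 12 lists, where the smallest p the test can give (0.011) called 0 bins of any gene. At the stricter q of 0.005 the adjusted p was 0.0952, with 11 of the 12 calls left. At equal list length 8 of the 12 were left, against 0 in KO (Fisher's exact test, adjusted p = 0.245).

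The next bin, chr3:34651406-34651505, was called in 3 lists each of WT, KO+5RK and KO+13RK and in 2 of KO+WT. KO replicate 1 held it too, with a value of 0.57, the 0.695 percentile of that list (Fisher's exact test, adjusted p = 0.323). The 2 bins after it, at 1512 to 1711 nt, were each called in all 3 WT lists and in 1 KO+5RK list. No KO, KO+WT or KO+13RK list held them under the Sox2 name. They are the 2 of 5 Sox2 bins in 3 WT lists that were lost in KO+WT, beside 15.3% of WT bins over all genes, while 0 of the 1 Sox2 bin in 3 KO+WT lists was new against 2.36% over all genes. From WT to KO 3 of the 5 were lost, beside 80.2% over all genes. From KO+13RK to KO 1 of 2 was lost, beside 61.4% over all genes. The first bin of the stretch was called in 2 WT, 1 KO+WT and 2 KO+5RK lists, at values of 0.48 to 0.57.

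The end stretch was called in KO as well, and not in KO+13RK. The bin chr3:34652406-34652505 was called in 3 lists of WT, in 2 each of KO, KO+WT and KO+5RK, and in 0 of KO+13RK. WT had values of 2.58, 1.81 and 1.83, and KO replicates 1 and 3 had 2.99 and 2.91. KO+WT replicates 1 and 3 had 2.23 and 2.27, and KO+5RK replicates 2 and 3 had 2.09 and 2.16. In KO these are the 98.6 and 98.1 percentiles. The bin before it had 1.96 in KO replicate 1 and 1.11 in replicate 3, and 1.65 and 1.18 in WT replicates 1 and 3. It was called as well in KO+WT replicate 2 (1.84) and KO+5RK replicate 1 (0.98). Each WT, KO+WT and KO+5RK list thus held at least 1 end bin, as did KO replicates 1 and 3, while no KO+13RK list held any. For the last bin the 7 of 12 lists with a METTL14 protein against 2 of 3 in KO gave an adjusted Fisher's exact p of 1. The 5 of 6 lists with wild-type METTL14 against 2 of 6 mutant lists gave 0.677, a test that called 0% of 22615 bins in either direction and had 893 (3.95%) at an unadjusted p under 0.05.

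**Figure D3:**
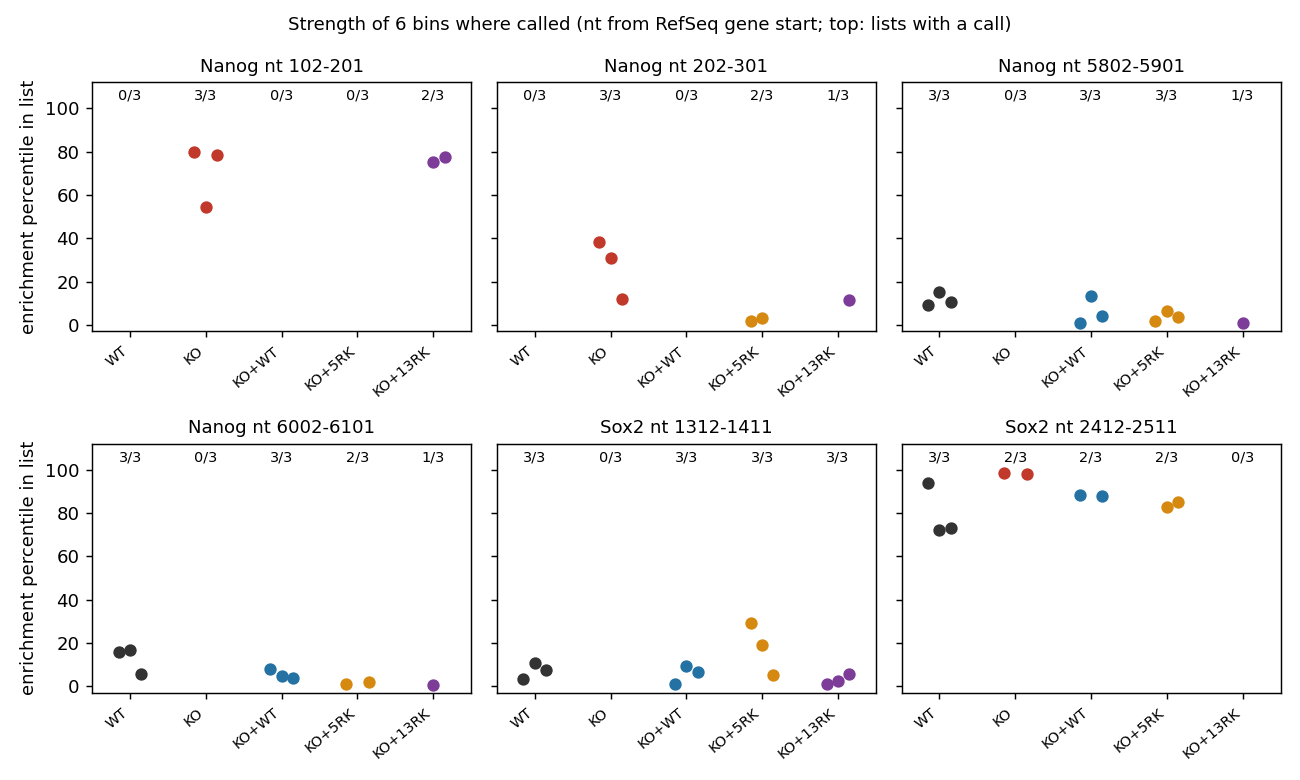
Percentile of the enrichment value within its list for 4 Nanog bins and 2 Sox2 bins, by line, with 1 point per list in which the bin was called and the number of lists called out of 3 at the top. The first Nanog start bin lies between 54.2 and 79.8, and the Sox2 bin at 1312 to 1411 nt, called in 12 lists, lies at or under 29.1.

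In number, the WT lists had 7, 5 and 7 Sox2 bins and the KO lists 3, 0 and 2. The KO+WT lists had 2, 4 and 3, the KO+5RK lists 5, 5 and 3, and the KO+13RK lists 2, 2 and 2. The order of the means was WT (6.33 ± 1.15), KO+5RK (4.33 ± 1.15), KO+WT (3 ± 1), KO+13RK (2 ± 0) and KO (1.67 ± 1.53; SD, n = 3). Neighbours overlapped, WT did not overlap with KO+WT, KO+13RK or KO, and KO+5RK, with 3 to 5 bins, lay above KO+13RK in every list. KO minus the 12 other lists was -2.25 bins (exact permutation test, p = 0.108, adjusted p = 0.450). With all lists cut to the length of the shortest, which is a KO list, it was -0.17 (exact permutation test, p = 1), and without KO replicate 2 it was -1.42. Lists with wild-type METTL14 had 4.67 ± 2.07 and mutant lists 3.17 ± 1.47 (SD, n = 6; exact permutation test, p = 0.240, adjusted p = 0.588), a difference of 1.5 bins that was 0 at equal list length.

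The assignment of these bins to Sox2 is shared with another gene. Sox2 lies within the span of Sox2ot (ENSMUSG00000105265), a long noncoding RNA gene on the same strand. All 60 rows named for Sox2ot fell on the Sox2 span and 0 elsewhere in the 117613 nt of Sox2ot. Of the 52 Sox2 rows, 49 (94.2%) were overlapped by a Sox2ot row of the same list, so the same RNA fragments may stand behind both names. The Sox2ot bin chr3:34651371-34651470 was called in every list but those of KO. It shares 35 nt with the Sox2 bin of the same pattern and 65 nt with the next Sox2 bin, which KO replicate 1 held and 1 KO+WT list lacked. The Sox2ot bin chr3:34651571-34651670 shares 35 and 65 nt with the 2 Sox2 bins that were lost from WT to KO+WT. It was called in 3 WT, 2 KO+WT and 3 KO+5RK lists, and in 0 of KO and KO+13RK. In KO+WT replicates 2 and 3 its values were 0.72 and 0.66. A further Sox2ot bin, chr3:34650071-34650170, lies 77 to 176 nt from the start of Sox2, where no bin carries the Sox2 name. Every KO list held it, with values of 0.71, 0.88 and 0.95, and WT replicates 2 and 3 held it with 0.67 and 0.7. It was called in 0 lists of the rescue lines (3 of 3 against 2 of 12 lists, adjusted Fisher's exact p = 0.163).

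Pou5f1 (ENSMUSG00000024406, chr17:35506032-35510777, plus strand) had no called bin in any WT or KO+WT list, although these 6 lists are the longest. It was called in 2 lists each of KO, KO+5RK and KO+13RK. The KO lists had 0, 1 and 1 bins, the KO+5RK lists 1, 0 and 2, and the KO+13RK lists 1, 4 and 0. The means were 1.67 ± 2.08 in KO+13RK, 1 ± 1 in KO+5RK, 0.667 ± 0.577 in KO, and 0 in WT and KO+WT (SD, n = 3), and neighbours overlapped. Lists with wild-type METTL14 had 0 and mutant lists 1.33 ± 1.51 (SD, n = 6), a difference of -1.33 bins (exact permutation test, p = 0.0606, adjusted p = 0.324). KO and the 12 other lists had the same mean of 0.667 (exact permutation test, p = 1, adjusted p = 1).

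The bin called most often was chr17:35509119-35509218, at 3088 to 3187 nt from the gene start. Its value was 0.74 in KO replicate 2, 0.67 in KO replicate 3, 0.69 in KO+5RK replicate 3, and 0.65 and 0.92 in KO+13RK replicates 1 and 2. Apart from the last, at the 15.9 percentile, these lay at or under the 2.88 percentile of their lists. The bin at the gene start, chr17:35506019-35506118, begins 13 nt before the RefSeq start. It had 0.95 and 0.92 in KO+5RK replicates 1 and 3 and 0.88 in KO+13RK replicate 2, and no KO list held it. The bins at 388 to 487 nt and 3888 to 3987 nt were called in KO+13RK replicate 2 alone, with 0.6 and 0.64. Without that list the difference between wild-type and mutant lists was -0.8 bins (exact permutation test, adjusted p = 0.328).

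An antisense gene overlaps the most frequent Pou5f1 bin. Gm19553, on the minus strand, was called at chr17:35509078-35509177, sharing 59 nt with it, in WT replicates 1 and 2 (0.63 and 0.74), KO replicate 2 (0.77), KO+WT replicate 2 (0.61) and KO+13RK replicate 2 (0.62). In KO replicate 2 and KO+13RK replicate 2 the bins of both genes were called. The libraries were made with a stranded kit per the labels, but how strand was used in peak calling is not given, so the calls in WT and KO+WT on the other strand leave the assignment uncertain.

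Among 32 other genes listed for the naive pluripotency network, 31 had a bin in some list. For bins per list in KO against the 12 other lists, 29 were tested. Of these 29, 21 had fewer bins in KO, the median difference was -0.833 bins, and 0 passed in either direction. Over all 9852 genes tested the median was -0.417 and 7128 had fewer. At the level of bins, 11 of the 31 genes had a bin called less often in KO by Fisher's exact test over all bins (adjusted p = 0.0378 for each), and 830 of all 13765 genes did. Sox2 shared this with the transcription factor genes Esrrb, Klf2, Klf4, Tbx3, Nr5a2, Sall4 and Tcf3, the growth factor gene Fgf4, the Akt coactivator gene Tcl1, the telomere-associated gene Rif1 and the corepressor gene Trim28. Trim28 had 3 such bins, and Esrrb, Klf2, Tbx3, Sall4, Fgf4 and Rif1 had 2. Esrrb, an orphan nuclear receptor gene, had those 2 bins in 0 KO lists, while its bins per list were 9.33 ± 1.53 in KO and 8.67 ± 0.577 in WT (SD, n = 3; KO minus the 12 others 2.42, exact permutation test, adjusted p = 0.724). Zfp281, a zinc finger factor, was the 1 gene of the list with a bin called more often in KO, and 228 of all genes had one. The shares of listed and of all genes were not matched for bins per gene. Calls in at least 3 lists were found for 29 of the 31 listed genes and for 9852 of the 13765. The list was chosen with earlier results of these data known. Its genes were matched by symbol, so Tcf3 here is the gene of the E2A factor. It is not Tcf7l1, the network factor that also went by the name Tcf3, which was not looked up. In the test of wild-type against mutant METTL14, 0 bins of the 31 genes passed.

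Tbx3, a T-box repressor of differentiation, and Fgf4, a target of Oct4 and Sox2, had no called bin left in KO. The listed genes Il6st, Dppa2, Lin28a, Fbxo15, Gbx2 and Prdm14 also had 0 there. Their WT means were 8, 1, 1.67, 1.33, 1.67 and 0.333. Prdm14 had 0 in every rescue line too, Fbxo15 in KO+5RK and KO+13RK, and Lin28a in KO+5RK. KO lists held bins in 3697 to 4733 of the 13765 genes, against 7788 to 7896 in WT lists. For all genes, the share without any KO bin is not given here. Tbx3 had 0 bins in KO, against means of 4 ± 0 for WT, 4.33 ± 0.577 for KO+WT, 4 ± 1 for KO+5RK and 2.33 ± 0.577 for KO+13RK. Fgf4 had 0 in KO too, against 3.33 ± 1.15, 3.33 ± 0.577, 3.33 ± 0.577 and 2 ± 0 in the same order (SD, n = 3; exact permutation test of KO against the 12 others, p = 0.0022, adjusted p = 0.0565 for both). Of 4 genes of the same factor families, Sox15, Sox3, Pou3f1 and Pou2f1, 3 had fewer bins in KO, with a median difference of -0.375, and 0 passed.

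**Figure D4:**
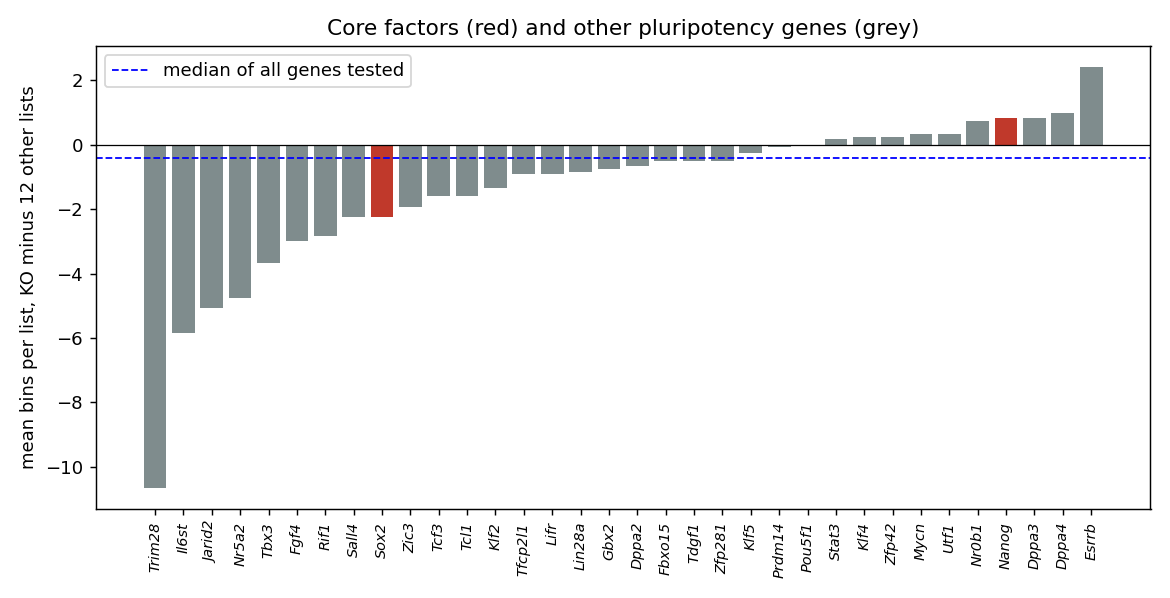
Difference in mean called bins per list, KO minus the 12 other lists, for the 3 core factors (red) and 31 other pluripotency genes (grey), with the median over all genes tested as a dashed line at -0.417. Sox2 lies at -2.25 (-0.17 at equal list length), Pou5f1 at 0 and Nanog at 0.833 (1.67 at equal list length), and no gene passed the test over all genes.

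The genes whose bins per list ran most alike were found by Pearson's correlation over the 15 lists among 8416 genes with at least 2 bins in some list. For Sox2 they were Sox2ot (0.92), which shares its bins, then Wbp4 (0.90), Ggta1 (0.90), Smpd1 (0.89) and Ppp2r5e (0.89). For Pou5f1 they were Aire (0.92), Rassf4 (0.90), Atp6ap2 (0.90), Ttll3 (0.90) and Chrna9 (0.85). For Nanog they were Dnajc3 (0.80), Zbtb3 (0.75), Zfp811 (0.74), Gatd1 (0.73) and Zfp607b (0.73). The points share the libraries and the list lengths, and the counts are small, so the values are a description.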

How the data were processed

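Called m6A bins were analysed in 15 lists, 1 for each of 3 replicates of 5 lines. The 3 input libraries of each line have no list of their own. Each row of a list, deposited without a header, holds a 100 nt bin of an Ensembl gene with an enrichment score of the authors' own, whose scale is not given, and a deposited p-value and q-value (q under 0.05 in every row). Per the submitters' processing notes, GRCm38, kallisto 0.43.0 and STAR 2.5.3a were used, in roles not stated there. The names of the lists carry the term clam_peak, and no source used here says more about how peaks were called. Lists were matched to libraries by their shared replicate names. Strictness and depth before deposit could differ between lists, and read depth is unknown.

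An exact permutation test, two-sided, was run on bins per list for every gene called in at least 3 of the lists compared, and single bins by Fisher's exact test under the same minimum. The p-values were adjusted by the Benjamini-Hochberg method over all genes or bins, at a threshold of 0.05 (Python 3.11.15, NumPy 2.4.6, pandas 2.3.3, SciPy 1.17.1). Lines with 3 lists each cannot pass 0.05 against each other, so KO was set against the 12 other lists and the 6 wild-type METTL14 lists against the 6 mutant lists. A bin was lost from one line to another when called in 3 lists of the first and 0 of the second. Gene spans and gene-start sequences came from RefSeq, GRCm38.p6, matched by symbol for all 3 genes. The functions were tested on simulated calls.

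The genes named were the 3 members, the 5 genes of most similar pattern for each, and listed pluripotency genes with a bin called by Fisher's exact test. Tbx3, Fgf4 and Fn1 values, the other pluripotency genes without a bin in KO, Sox2ot and Gm19553 were added after values were seen. Members and lists were chosen with earlier results of these data known. The labels do not say whether replicates are separate cultures, so p-values measure the spread between these libraries. Every test pooled lists of different lines, so this spread also holds differences between lines. For Sox2 the SD of bins per list was 1.88 over all lists other than KO. Within those lines it ran from 0 in KO+13RK to 1.15 in WT and KO+5RK. The KO lists all come from the same line, so variation between knockout lines was not tested.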

Additional observations from a re-analysis of the deposited data

How the results depend on the processing

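The alternatives were a q of at most 0.005, an enrichment value of at least the median (1.36), equal list length (the 6328 rows of smallest p), merged overlapping bins, each list left out, the replicate number as a block and, added after seeing the data, KO against WT and KO+WT only. Where a gene had calls in enough lists to be tested, the adjusted p of its difference in bins per list stayed above 0.05. Several alternatives left too few for a test: Pou5f1 in both comparisons at the stricter q and at the median enrichment value, wild-type against mutant at equal length, and KO against WT and KO+WT only, and Nanog, wild-type against mutant, at the median enrichment value. Equal list length moved Sox2, KO against the others, from -2.25 to -0.17 and, wild-type against mutant, from 1.5 to 0, moved Nanog, KO against the others, from 0.833 to 1.67, and moved Pou5f1, wild-type against mutant, from -1.33 to -0.67. The sign changed in 2 cases: Nanog, wild-type against mutant METTL14, was 0.667 at the stricter q, and Sox2, KO against the others, was 0.25 at the median enrichment value; the cause was not tested. The 1 member bin called less often in KO became 0 at the stricter q and at equal list length. It also became 0 at the median enrichment value, against WT and KO+WT only, and without a KO list (range 0 to 1 with a list left out), where no other outcome was possible: its highest enrichment value is 1.11, and in the smaller designs the smallest adjusted p of any bin was 0.0577 and 0.214. Merging changed no member value. Replicate numbers did not pair the lists: the correlation of deviations between same-numbered lists ran from -0.690 to 0.469, and the own number correlated best in 17 of 60 cases. With the replicate block, exact permutation p-values for KO against the others were 1 for Pou5f1, 0.136 for Sox2 and 0.528 for Nanog, with differences of 0, -2.25 and 0.833, and the count of genes called stayed at 0. The first Nanog start bin kept its 3 KO and 2 KO+13RK lists under all 3 row filters. The end-side bins kept 1 WT list each at equal length and none at the median enrichment value.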

Other observations

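The exchange of places seen in Nanog was counted over all genes, a pattern chosen after the Nanog values were seen. A bin held by every KO list and by 0 of the 6 WT and KO+WT lists occurred in 331 genes, and a bin called in those 6 lists and in no KO list in 2175 genes. Both kinds occurred in 142 genes, which is 42.9% of the first set, 6.53% of the second and 1.03% of the 13765 genes with any bin. In 109 of the 142, Nanog among them, every bin of the first kind lay upstream of every bin of the second kind. Nanog bins held by only some of the KO lists, among them bins further downstream, are not part of this count. None of the 32 other pluripotency genes was among the 142. At a share of 1.03% over all genes, a list of 32 is too short for this to set Nanog apart.

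Each row name ends in a running number within its gene, and numbers are skipped. Up to the highest number in each list, 35.5% of the numbers of Nanog, 47.5% of those of Sox2 and 37.5% of those of Pou5f1 have no row, against 42.7% over all genes. No source used here says what the skipped numbers stand for.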
